A study of Mus musculus with 16 samples.

Results

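The TGF-β genes examined here are 9 mouse genes: the ligands Tgfb1, Tgfb2 and Tgfb3, the receptors Tgfbr1, Tgfbr2 and Tgfbr3, the signal transducer Smad3, and Smad7 and Skil, which restrain the pathway. They were chosen by gene symbol, and all 9 were found among the 33072 genes of the count table. Their mRNA was measured in 4T1 and 67NR cells, which are isogenic lines from a spontaneous mammary carcinoma of BALB/c mice. The 4T1 line is metastatic and the 67NR line is non-metastatic. Cells of both lines received vehicle or 15 µM CIX, an inhibitor of the phospholipase cPLA2α, for 24 h in medium with serum, and each of the 4 groups held 4 biological replicates, which made 16 samples. Each group is thus a single line in culture, and serum itself can carry TGF-β, which was not measured here.

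TGF-β ligands are secreted in a latent form, and once released they bind the type II receptor, which phosphorylates the type I receptor. The active type I receptor phosphorylates Smad2 and Smad3, which enter the nucleus with Smad4 and regulate target genes. Among these targets are Smad7 and Skil, which feed back on the pathway. In mammary tumor cells the pathway is known both for holding back growth and for favoring invasion.

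The total estimated count per sample lay between 21715700 and 29450629 (median 23961313), and all libraries were run on a common flow cell. Levels are given as CPM, the count relative to the size of the library, after TMM scaling, and 3 counts, taken as the floor of detection, corresponded to 0.107 to 0.137 CPM. This floor covers counting error only. Epithelial markers marked the lines apart. Of the 6 markers, Epcam, Cdh1, Krt8, Krt18 and Cldn7 had group means of at least 1 CPM in 4T1 cells, with Krt14 below 1 CPM in vehicle, and their summed level was 2446 to 2782 CPM. In 67NR cells the same sum was 1.07 to 5.31 CPM and only Krt8 reached 1 CPM, so that the carcinoma label of 67NR was not borne out by its epithelial markers. These levels do not test the tumor of origin of the line. The leukocyte markers Ptprc and Cd3e were at or near 0 in 67NR, and at 1.22 and 0.0525 CPM in 4T1 vehicle, whereas Cd68, the remaining leukocyte marker, had means of 8.82 CPM in 67NR vehicle, 37.4 CPM in 67NR CIX, 68.9 CPM in 4T1 vehicle and 165 CPM in 4T1 CIX. Some libraries stood apart. Pla2g4a, the gene of cPLA2α, reached 324 CPM in sample 13 of the vehicle treated 67NR cells, and 60.0 to 81.1 CPM in the rest of that group. Its highest levels in the other groups were 162 CPM in 4T1 vehicle sample 11 (next 94.4), 176 CPM in 67NR CIX sample 10 (next 127) and 186 CPM in 4T1 CIX sample 12 (next 137). Calls of the 9 genes that change without sample 13 are given with and without it. The number of all genes called with CIX in 67NR cells, 45, fell to 15 without sample 13 and to between 0 and 2 without any other vehicle sample of 67NR. It rose to 69 without 67NR CIX sample 2 and was 0 without CIX sample 6, 10 or 14. With CIX in 4T1 cells 1084 genes were called, 1046 without CIX sample 4, and 286 to 721 without any other sample. Between the lines with CIX 3746 genes were called, and 4751 without 4T1 CIX sample 4. With vehicle these were 4422, and 4922 without 4T1 vehicle sample 3.

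Genes were tested with limma-voom in the 8 samples of each comparison, or in all 16 samples for the difference between the responses of the lines. Calls were made at an adjusted p-value below 0.001 (Benjamini-Hochberg, over all genes tested), and "not called" means that it missed this threshold. Fold changes are on the log2 scale with their standard error (SE). Since these are bulk RNA samples, fewer cells expressing a gene and less RNA per cell cannot be told apart.

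Treatment of 4T1 cells with CIX was accompanied by a change in one of the receptors. Tgfbr3, the type III receptor or betaglycan, which presents ligand to the type II receptor, was called with higher expression after CIX. The other 8 genes were not called. The 9 genes were all tested in 4T1 cells, so that 1 of 9 was called, where 9.28% of all 11676 tested genes were called. At an adjusted p-value below 0.05, a threshold passed by 42.7% of all genes, Tgfb2 and Tgfbr2 were added. Samples of CIX and vehicle did not overlap for 2 of the 9, Tgfbr2 and Tgfbr3, and for 39.9% of all tested genes. The median log2 fold change was 0.28 over the 9 genes and -0.01 over all genes.

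In 67NR cells 0 of 8 tested genes were called with limma-voom, where 0.389% of all genes were called, and Tgfb2 was too low to be tested. By unadjusted p-value 4 of the 8 lay below 0.05, as did 32.8% of all genes. The Wald test of DESeq2 called 2, Tgfb3 and Smad3, and 1042 of all 11583 genes, while edgeR's quasi-likelihood test called 0 of the 8. The same pair, Tgfb3 with higher and Smad3 with lower levels after CIX, passed an adjusted p-value of 0.05, which 17.8% of all genes did. Their CIX and vehicle samples did not overlap, as in 23.3% of all genes. The median log2 fold change of the 8 genes was -0.13, as compared to -0.01 over all genes.

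The difference between the responses of the lines was called for 1 of the 9 genes, Tgfbr3, and for 7.86% of all genes. At 0.05 Tgfbr2 was added, and 29.3% of all genes passed. The plot of levels by sample and the plot of responses show these results for each gene.

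**Figure D1:**
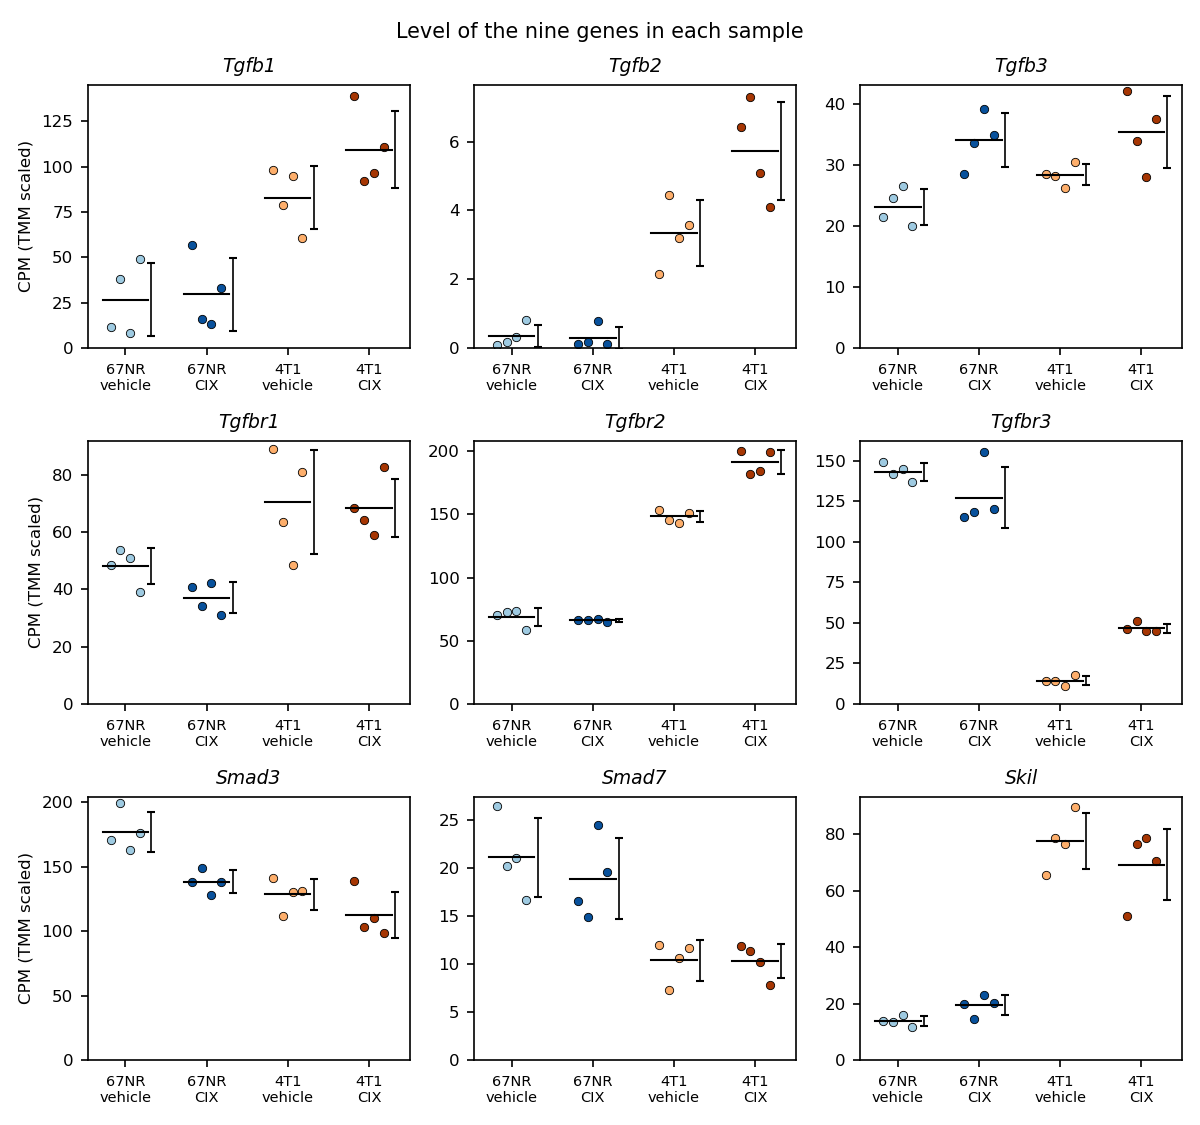
Level of each of the 9 genes in CPM (TMM scaled, linear axis from 0) in the 16 samples. Points are single samples (4 per group), horizontal lines are group means and vertical bars are ± 1 SD. Tgfbr3 lies at 11.4 to 17.9 CPM in vehicle treated 4T1 cells, at 44.8 to 50.9 CPM in CIX treated 4T1 cells and above 100 CPM in 67NR cells, whereas Tgfb1 in 67NR cells spreads from 8.20 to 56.9 CPM.

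**Figure D2:**
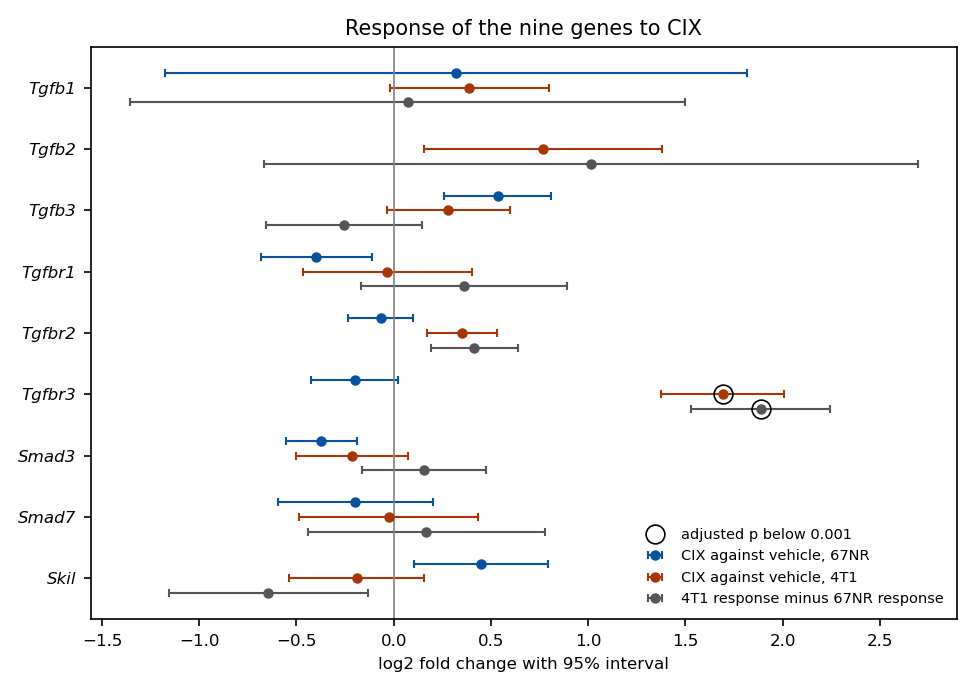
Log2 fold change of each gene with CIX in 67NR (blue) and 4T1 cells (brown), and the 4T1 response minus the 67NR response (grey), with 95% intervals from limma-voom. Rings mark an adjusted p-value below 0.001, reached by Tgfbr3 in 4T1 cells (1.69) and in the difference (1.89), and the 67NR response of Tgfb2 is absent because it was not tested there.

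Among the ligands, Tgfb1 (ENSMUSG00000002603, GRCm38 chromosome 7, 25687002 to 25705077) encodes the most widely expressed isoform. In vehicle treated 4T1 cells it was at 97.9, 78.8, 94.9 and 60.4 CPM, and in CIX treated 4T1 cells at 139, 92.1, 96.3 and 111 CPM. The groups overlapped, with a log2 fold change of 0.39 (SE 0.18, 95% interval -0.02 to 0.80, limma-voom adjusted p = 0.113). In 67NR cells Tgfb1 varied widely within a group. It was at 11.5, 38.2, 8.20 and 48.9 CPM with vehicle, the highest of them in sample 13, and at 56.9, 16.1, 13.0 and 33.1 CPM with CIX. The log2 fold change of 0.32 had an SE of 0.66 and a 95% interval from -1.18 to 1.82, so that a change in either direction was not detectable with this spread.

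All 4T1 samples lay above all 67NR samples in Tgfb1 with either treatment. With vehicle the means were 83.0 ± 17.2 CPM in 4T1 and 26.7 ± 20.0 CPM in 67NR (n = 4 each, ± SD), and the log2 fold change of 2.01 (SE 0.50) was not called (limma-voom adjusted p = 0.00586). With CIX it was 2.09 (SE 0.38) and was called (adjusted p = 8.39e-04). The latter call was lost with edgeR's test, in a fit of all 16 samples and in 7 of 8 fits with a sample left out, where it held without 67NR CIX sample 2 (log2 fold change 2.45). It also held with DESeq2, with its size factors, with library size only, with quality weights and with both other filters.

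Tgfb2 (ENSMUSG00000039239, chromosome 1, 186622792 to 186705989) encodes an isoform that relies on betaglycan for efficient binding to its receptors. It was at 2.14, 4.45, 3.18 and 3.57 CPM in 4T1 cells with vehicle and at 6.42, 7.29, 5.08 and 4.10 CPM with CIX. One CIX sample lay below the highest vehicle sample. The log2 fold change was 0.77 (SE 0.27, 95% interval 0.16 to 1.38) and was not called (limma-voom adjusted p = 0.0456). In 67NR cells it was close to the floor of detection, with 2, 4, 8 and 19 counts in the vehicle samples and 3, 4, 17 and 3 counts in the CIX samples. The highest of the vehicle samples was again sample 13. Each 4T1 sample was above each 67NR sample, and without the filter on low values the log2 fold change between the lines was 3.54 with vehicle (SE 0.54) and 4.62 with CIX (SE 0.51). With vehicle Tgfb2 passed the filter when any of the 4 67NR samples was left out. It passed only through its 4T1 samples (approximate TPM 1.55 to 3.25), since all 67NR vehicle samples were below 1 (0.0627 to 0.519). The calls from these fits are thus no support beyond its higher level in 4T1. Tgfb2 was called without sample 13 (log2 fold change 4.05, limma-voom adjusted p = 1.86e-04) or sample 1 (3.03, adjusted p = 9.83e-04) and not without sample 5 (3.38, adjusted p = 0.00171) or 9 (3.63, adjusted p = 0.00129).

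Tgfb3 (ENSMUSG00000021253, chromosome 12, 86056745 to 86079041) encodes the remaining isoform. In 67NR cells it was at 21.5, 24.6, 26.5 and 19.9 CPM with vehicle and at 28.5, 33.7, 39.2 and 34.9 CPM with CIX. All CIX samples were above all vehicle samples, with a log2 fold change of 0.53 (SE 0.12, limma-voom adjusted p = 0.0183). In 4T1 cells it was 28.4 ± 1.75 CPM before and 35.4 ± 5.96 CPM after CIX (n = 4 each, ± SD), with overlap of the groups (log2 fold change 0.28, SE 0.14, 95% interval -0.03 to 0.60). The responses of the lines did not differ beyond their error (difference -0.26, 95% interval -0.66 to 0.15). Its gene overlaps Ttll5 on the opposite strand by 5149 bases, and although the libraries were stranded, the strand setting of the counting is not given in the sources used here.

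Ligands were compared with each other per length, which holds only if the estimated counts had not already been scaled for it. Whether they had is not given in the sources used here. In CPM per kilobase of the mean transcript, vehicle treated 4T1 cells had a level of 67.1 for Tgfb1, 8.40 for Tgfb3 and 1.83 for Tgfb2. Tgfb1 thus made up 86.8% of the 3 ligands, or 78.1% when the longest transcript of each gene was used. In vehicle treated 67NR cells the share of Tgfb1 was 75.4% or 60.0%, and Tgfb2 took 0.660% or 0.390%. The order Tgfb1, Tgfb3, Tgfb2 held for the group means of all 4 groups with both lengths, although Tgfb1 was below Tgfb3 in single samples of 67NR. This was so with either length in vehicle sample 9 and CIX sample 10, and with the longest transcript in vehicle sample 1 and CIX sample 6 as well, which made 4 of the 8 samples of 67NR. Without division by length, the mean of Tgfb3 in 67NR CIX samples, 34.1 CPM, was above that of Tgfb1, 29.8 CPM. In 67NR vehicle samples the means were 26.7 CPM for Tgfb1 and 23.1 CPM for Tgfb3.

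The 3 members of the set with the following promoter windows, Tgfb1, Tgfb2 and Tgfbr2, are shown because their 4T1 samples all lay above their 67NR samples with both treatments. Each window holds the 250 bases before the start of the gene as given by RefSeq on GRCm38.p6, read 5′ to 3′ on the strand of the gene. The Tgfbr2 window reaches down to 116175364, whereas the gene as annotated here starts at 116175360 on the - strand. The bases after this RefSeq start were not found in any annotated transcript of Tgfbr2. Capitals mark CAGAC or its reverse complement GTCTG, the Smad box, which Smad3 and Smad4 can bind.
Tgfb1 (chr7:25686752-25687001, + strand): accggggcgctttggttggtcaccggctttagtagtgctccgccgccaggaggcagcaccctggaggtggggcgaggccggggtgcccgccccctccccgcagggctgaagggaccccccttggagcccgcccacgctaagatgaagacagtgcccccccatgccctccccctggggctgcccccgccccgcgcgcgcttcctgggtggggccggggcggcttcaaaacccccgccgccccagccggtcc
Tgfb2 (chr1:186705990-186706239, - strand): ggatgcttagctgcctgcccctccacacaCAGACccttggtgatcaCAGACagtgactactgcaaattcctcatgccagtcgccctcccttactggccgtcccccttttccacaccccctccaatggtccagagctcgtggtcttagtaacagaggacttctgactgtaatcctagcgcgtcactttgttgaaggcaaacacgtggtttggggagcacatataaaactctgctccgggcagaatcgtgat
Tgfbr2 (chr9:116175364-116175613, - strand): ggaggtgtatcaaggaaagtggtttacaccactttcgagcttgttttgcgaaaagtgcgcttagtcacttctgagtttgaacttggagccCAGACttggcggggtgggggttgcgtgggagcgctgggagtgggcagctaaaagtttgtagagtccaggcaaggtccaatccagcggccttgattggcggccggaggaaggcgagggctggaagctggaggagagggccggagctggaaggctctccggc
The window of Tgfb2 held 2 Smad boxes and that of Tgfbr2 held 1, whereas that of Tgfb1 held 0. A Smad box was found on either strand in 42.2% of 32851 promoter windows of the same length, so that finding one is common. The window of Tgfb1 had 5 matches to the GC box (GGGCGG or CCGCCC), which the other pair lacked and which 32.7% of all windows held. The AP-1 motif TGANTCA, found in 6.75% of all windows, was absent from all 3, and no window held more than a single kind of motif.

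Among the receptors, Tgfbr3 (ENSMUSG00000029287, chromosome 5, 107106570 to 107289629) was at 14.4, 14.1, 11.4 and 17.9 CPM in the 4T1 vehicle samples. With CIX it was at 46.3, 50.9, 44.8 and 45.1 CPM. The groups were far apart, and the increase was 3.23-fold, or 1.69 on the log2 scale (SE 0.14, 95% interval 1.37 to 2.01, limma-voom adjusted p = 6.71e-05). In 67NR cells Tgfbr3 was at 149, 142, 145 and 137 CPM with vehicle and at 115, 118, 155 and 120 CPM with CIX. The CIX samples were lower than the vehicle samples but for sample 10, and the log2 fold change of -0.20 was not called (SE 0.10, 95% interval -0.42 to 0.02, adjusted p = 0.197). The responses of the lines differed by 1.89 on the log2 scale (SE 0.17, 95% interval 1.53 to 2.25, adjusted p = 4.42e-06).

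With vehicle, Tgfbr3 was 10.1-fold lower in 4T1 than in 67NR cells (log2 fold change -3.33, SE 0.12, limma-voom adjusted p = 1.12e-07), and with CIX it was 2.71-fold lower (-1.44, SE 0.11, adjusted p = 3.98e-06). In the order of its levels, 67NR vehicle (143 ± 5.42 CPM) and 67NR CIX (127 ± 18.8 CPM) overlapped, followed by 4T1 CIX (46.8 ± 2.82 CPM) and 4T1 vehicle (14.4 ± 2.68 CPM; SD, n = 4 each). The calls of Tgfbr3 in 4T1, in the difference and between the lines held whichever sample was left out and under each alternative setting. Of the words of 31 bases in its transcripts, 4.13% occur in another gene, mainly in Gm43422, an unconfirmed model within Tgfbr3 on the same strand.

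Other genes moved in the same samples. Vim, a mesenchymal marker, had a log2 fold change of 1.24 with CIX in 4T1 cells and was called (limma-voom adjusted p = 4.27e-05). In 67NR cells it was 0.58 and was not called (adjusted p = 0.00134). Vim carried the sum of the 6 mesenchymal markers, which was 1078 to 1219 CPM in 4T1 vehicle and 2501 to 2879 CPM in 4T1 CIX samples. In 67NR cells this sum was 4687 to 5617 CPM with vehicle and 7573 to 8577 CPM with CIX. Other members of the list went opposite ways there, with Pdgfra at 131 and 224 CPM (log2 fold change 0.75, limma-voom adjusted p = 0.00267) and Pdgfrb at 52.1 and 31 CPM (-0.76, adjusted p = 0.00425), neither of them called. In 4T1 cells Pdgfra was at 52.1 CPM in 4T1 vehicle and 51.3 CPM in 4T1 CIX, Col1a1 was at 1.01 and 1.09 CPM, and Pdgfrb, Thy1 and Col3a1 were below 1 CPM in both. In the difference of the responses, 1 of 4 tested mesenchymal markers was called higher in 4T1 and 1 lower, against 7.86% of all genes. Among the epithelial markers, Epcam fell from 315 to 186 CPM with CIX in 4T1 cells (log2 fold change -0.78, limma-voom adjusted p = 1.28e-04), and Cldn7 was at 30.0 and 16.5 CPM (-0.87, adjusted p = 0.00132, not called). The other epithelial markers were not called or not tested. Krt8 was at 551 and 748 CPM (log2 fold change 0.43), Krt18 at 1075 and 1199 CPM (0.14, without overlap of the groups) and Cdh1 at 599 and 493 CPM (-0.29), and Krt14, too low to be tested, was at 0.548 and 2.33 CPM, also without overlap. The epithelial sum had a median of 2597 CPM in 4T1 vehicle and 2630 CPM in 4T1 CIX samples. The leukocyte sum, which came from Cd68, was 52.3 to 88.8 CPM in 4T1 vehicle and 132 to 198 CPM in 4T1 CIX, while Ptprc was at 1.22 and 0.497 CPM and Cd3e at 0.0525 and 0 CPM. In 67NR cells the leukocyte sum was 7.68 to 12.0 CPM with vehicle and 34.4 to 40.4 CPM with CIX. Cd68 was called with higher expression after CIX in 4T1 (log2 fold change 1.25, limma-voom adjusted p = 6.84e-04) and in 67NR cells (2.08, adjusted p = 2.96e-04). The endothelial sum was at most 2.69 CPM in any sample. In the platelet list Pf4 was near 0 and Itga2b gave a sum of 1.29 to 4.06 CPM in 4T1 vehicle and 2.95 to 8.58 CPM in 4T1 CIX samples (log2 fold change of Itga2b 1.23, limma-voom adjusted p = 0.05004, not called), and of 10.7 to 24.4 CPM in 67NR vehicle and 12.4 to 23.6 CPM in 67NR CIX samples. The part of these markers in the levels of Tgfbr3 was not tested.

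Tgfbr2 (ENSMUSG00000032440, chromosome 9, 116084293 to 116175360), the type II receptor that binds ligand first, was at 153, 146, 143 and 151 CPM in 4T1 vehicle samples. With CIX it was at 200, 182, 184 and 200 CPM in 4T1. All CIX samples were above all vehicle samples, but with a 1.27-fold difference (log2 0.35, SE 0.08) it was not called (limma-voom adjusted p = 0.00682). DESeq2 and a fit of all 16 samples did call it. In 67NR cells the levels were 70.3, 72.6, 73.7 and 58.6 CPM with vehicle and 66.6, 66.8, 67.2 and 64.6 CPM with CIX, a log2 fold change of -0.07 (95% interval -0.24 to 0.10). The difference between the responses was 0.42 (SE 0.11, adjusted p = 0.00791). Without 67NR vehicle sample 13, the lowest of its group, it was 0.49 and was called (adjusted p = 9.12e-04).

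Between the lines Tgfbr2 was called with both treatments. It was 2.15-fold higher in 4T1 with vehicle (log2 1.10, SE 0.08, limma-voom adjusted p = 3.44e-06) and 2.88-fold higher with CIX (log2 1.53, SE 0.07, adjusted p = 1.99e-07). Its order was 4T1 CIX, 4T1 vehicle and then the 67NR groups, which overlapped. Thus Tgfbr2 and Tgfbr3 were on opposite sides between the lines, and each was higher in CIX treated than in vehicle treated 4T1 samples.

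Tgfbr1 (ENSMUSG00000007613, chromosome 4, 47353222 to 47414931), the type I receptor kinase, was at 70.4 ± 18.2 CPM in vehicle and 68.6 ± 10.1 CPM in CIX samples of 4T1 cells (n = 4 each, ± SD). The log2 fold change was -0.03, with a 95% interval from -0.47 to 0.40. In 67NR cells it was at 48.5, 53.7, 50.9 and 39.2 CPM with vehicle and at 41.0, 34.1, 42.1 and 31 CPM with CIX, and the groups overlapped through vehicle sample 13 (log2 fold change -0.40, SE 0.13, limma-voom adjusted p = 0.0604). Its level in 4T1 as compared to 67NR cells was called with CIX (log2 0.88, SE 0.14, adjusted p = 3.40e-04) and not with vehicle (0.51, SE 0.19, adjusted p = 0.0408). That call was lost without 67NR CIX sample 6 or 14, where the log2 fold change was 0.80 and 0.76. The change in the line difference with CIX is the difference between the responses, 0.36 for Tgfbr1, whose 95% interval from -0.17 to 0.89 includes 0.

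Smad3 (ENSMUSG00000032402, chromosome 9, 63646767 to 63757994) carries the signal to the nucleus. In 67NR cells it was at 171, 199, 163 and 176 CPM with vehicle and at 138, 149, 128 and 138 CPM with CIX. The groups did not overlap, and the log2 fold change was -0.37 (SE 0.08, limma-voom adjusted p = 0.0155), short of the threshold. In 4T1 cells it was at 141, 112, 130 and 131 CPM with vehicle and at 139, 103, 111 and 98.5 CPM with CIX (log2 fold change -0.21, 95% interval -0.50 to 0.07). The responses differed by 0.16 (95% interval -0.16 to 0.48), so that a difference between the lines was not detectable. With vehicle Smad3 was lower in each 4T1 sample than in each 67NR sample (log2 fold change -0.47, SE 0.10, adjusted p = 0.00244).

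The feedback genes Smad7 and Skil lay on opposite sides between the lines. Smad7 (ENSMUSG00000025880, chromosome 18) encodes an inhibitory Smad that blocks the type I receptor. It was at 12.0, 7.29, 10.6 and 11.6 CPM in 4T1 and at 26.5, 20.2, 21 and 16.6 CPM in 67NR vehicle samples. The 4T1 samples were all lower, and the log2 fold change of -1.04 (SE 0.19, limma-voom adjusted p = 0.00105) just missed the threshold. Without 67NR vehicle sample 13, the lowest of its group, it was -1.18 and was called (adjusted p = 6.06e-04). With CIX the log2 fold change was -0.86 (SE 0.19, adjusted p = 0.00313). Between CIX and vehicle it was -0.03 in 4T1 (95% interval -0.49 to 0.43) and -0.20 in 67NR cells (95% interval -0.60 to 0.20).

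Skil (ENSMUSG00000027660, chromosome 3, 31095058 to 31122577) encodes SnoN, a repressor that binds Smad complexes and that TGF-β both degrades and induces. It was at 65.5, 78.7, 76.4 and 89.4 CPM in 4T1 vehicle samples and at 13.9, 13.4, 15.9 and 11.8 CPM in 67NR vehicle samples. This was a 5.57-fold difference (log2 2.48, SE 0.13, limma-voom adjusted p = 5.19e-07). With CIX the levels were 51.1, 76.6, 78.8 and 70.4 CPM in 4T1 and 19.7, 14.5, 23.0 and 20.1 CPM in 67NR samples, a 3.59-fold difference (log2 1.84, SE 0.18, adjusted p = 1.54e-05). Both calls held whichever sample was left out. The response to CIX was -0.19 in 4T1 (adjusted p = 0.347) and 0.45 in 67NR cells (adjusted p = 0.0734), and the difference between them, -0.64 (SE 0.24, 95% interval -1.15 to -0.13), was not called (adjusted p = 0.0548).

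**Figure D3:**
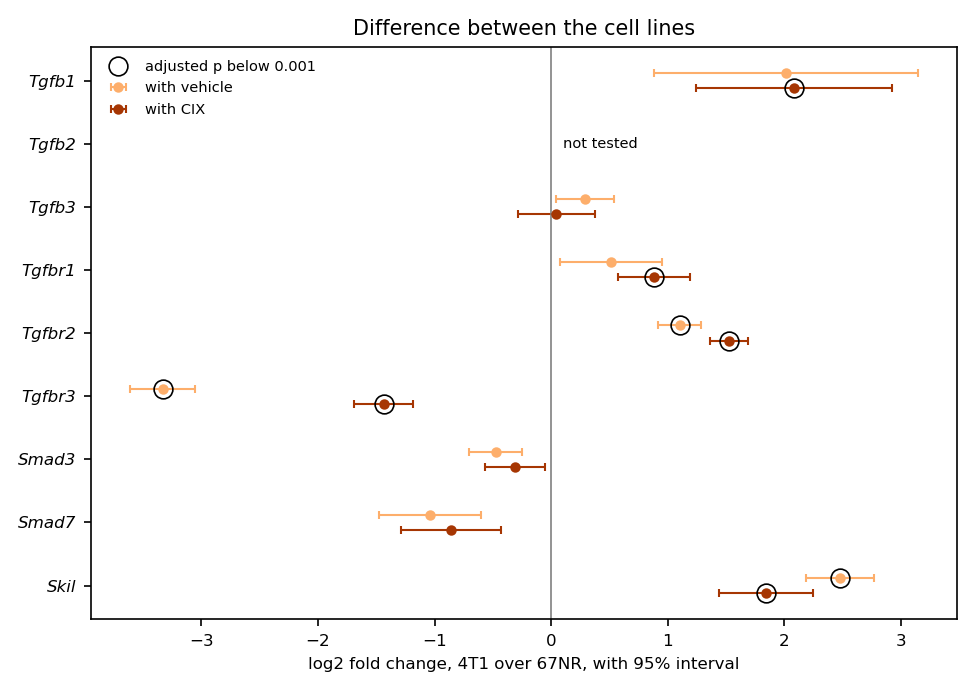
Log2 fold change of each gene in 4T1 over 67NR cells with vehicle (light) and with CIX (dark), with 95% intervals from limma-voom, and rings for an adjusted p-value below 0.001. Skil (2.48 and 1.84) and Tgfbr2 (1.10 and 1.53) are higher in 4T1, Tgfbr3 (-3.33 and -1.44) is lower, and Tgfb2 was below the filter in the 67NR samples and was not tested.

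Between the lines with vehicle, 3 of the 8 tested genes were thus called, Tgfbr2 and Skil with higher and Tgfbr3 with lower expression in 4T1. Of all 11057 genes, 40.0% were called. All 8 passed an adjusted p-value of 0.05, as did 67.4% of all genes, and the samples of the lines did not overlap for 6 of the 8, against 61.5% of all genes. With CIX 5 of the 8 were called, where Tgfb1 and Tgfbr1 were added, and 34.2% of all genes were called. At 0.05 there were 7, against 63.9% of all genes, and 6 did not overlap, against 57.5%. The median log2 fold change of the 8 genes was 0.40 with vehicle and 0.47 with CIX, while that of all genes was -0.01 and 0.00. These comparisons share their samples with those of CIX against vehicle.

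Around these 9 genes, 76 other genes of the pathway were listed in 6 groups: latency and activation of ligand, other receptors, other Smads, inhibitors, transcriptional targets, and other ligands with their traps. With CIX in 4T1 cells, 49 of them were tested, 0 were called with higher and 2 with lower expression, where 9.28% of all genes were called. These were Gdf11, a ligand of the activin type, and Id2, a target that encodes an inhibitor of basic helix-loop-helix factors. Gdf11 was 39.5 ± 2.93 CPM in vehicle samples and 15.7 ± 5.94 CPM in CIX samples of 4T1 (n = 4 each, ± SD, log2 fold change -1.41, SE 0.20, limma-voom adjusted p = 6.99e-04). Sample 4, at 24.6 CPM, was apart from the other CIX samples. Id2 was 12.5 ± 2.06 CPM in vehicle samples and 4.49 ± 0.793 CPM in CIX samples of 4T1 (log2 fold change -1.49, SE 0.19, adjusted p = 4.11e-04). It was lower in 67NR cells also, at 28.5 ± 4.72 as compared to 53.8 ± 7.48 CPM (log2 fold change -0.94, adjusted p = 0.00305), which was not called. With a sample left out, 1 of 8 fits called Gdf11 and 2 called Id2, and edgeR's test did not call Gdf11. Over all settings the log2 fold change was -1.65 to -1.32 for Gdf11 and -1.57 to -1.37 for Id2.

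In 67NR cells 51 of the listed genes were tested and 1 was called with lower expression after CIX, against 0.389% of all genes. This was Thbs1, whose product thrombospondin-1 activates latent TGF-β. It was at 198, 168, 225 and 178 CPM with vehicle and at 71.7, 62.0, 83.1 and 83.2 CPM with CIX (log2 fold change -1.38, SE 0.12, limma-voom adjusted p = 5.81e-04). In 4T1 cells it was 313 ± 59.5 CPM before and 259 ± 46.4 CPM after CIX (n = 4 each, ± SD), with overlap of the groups. The call of Thbs1 in 67NR cells was lost in each of 8 fits with a sample left out, although its log2 fold change stayed between -1.45 and -1.29.

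The response to CIX differed between the lines for 2 of 53 tested genes of the lists, against 7.86% of all genes. Ccn2, a matrix-associated target of TGF-β, was at 3.38, 5.02, 5.25 and 4.64 CPM in 4T1 vehicle and at 9.46, 8.71, 13.7 and 9.46 CPM in 4T1 CIX samples. In 67NR cells it was at 4.51, 2.71, 4.36 and 8.37 CPM with vehicle and at 0.578, 1.86, 0.137 and 0.261 CPM with CIX. It was thus higher with CIX in every 4T1 sample and lower in every 67NR sample, and the difference between the responses was 4.45 (SE 0.66, limma-voom adjusted p = 1.65e-04). The lowest of these levels came from 3 counts, at the floor, so that the size of the difference is imprecise (3.91 to 5.11 over all settings). Within 4T1 the log2 fold change of 1.16 (adjusted p = 0.00237) and within 67NR that of -3.27 (adjusted p = 0.0140) were not called. Gdf11 was the other gene called in the difference (-1.22, SE 0.23, adjusted p = 9.29e-04), and this call held in 1 of 16 fits with a sample left out and in 4 of 8 alternative settings (-1.45 to -1.12 over all of them).

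**Figure D4:**
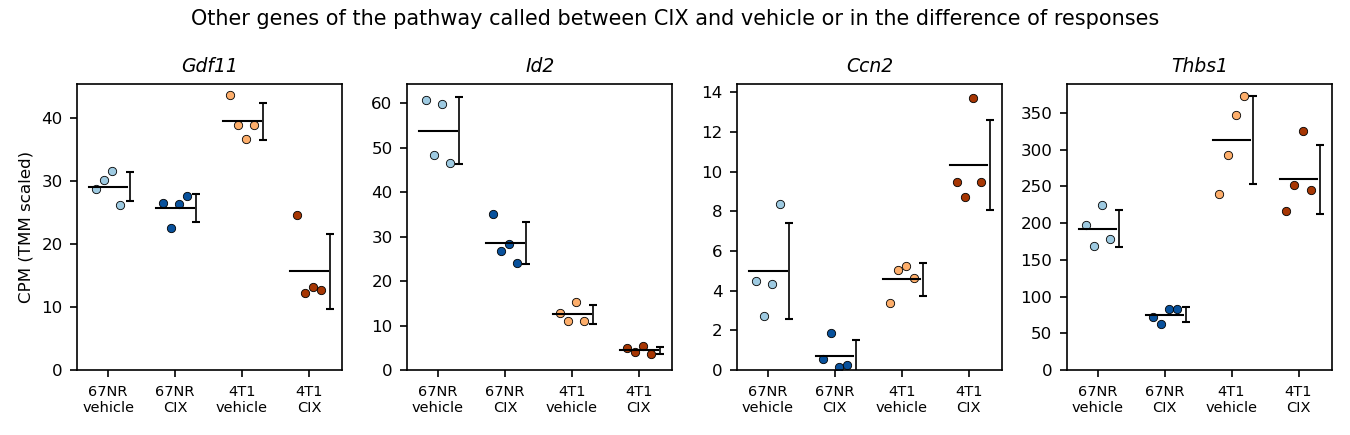
Level in CPM (TMM scaled, linear axes from 0) of the 4 other genes of the pathway that were called between CIX and vehicle or in the difference of the responses. Points are samples (4 per group), lines are group means and bars are ± 1 SD. Ccn2 is higher with CIX in 4T1 and lower in 67NR cells, whereas Thbs1 in CIX treated 67NR cells, at 62.0 to 83.2 CPM, is below every sample of the other groups.

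Between the lines with vehicle, 48 of the 76 were tested, and 13 were called with higher and 10 with lower expression in 4T1 cells, where 40.0% of all genes were called. Among the inhibitors, Tgif2 (log2 fold change 4.30), Pmepa1 (2.74) and Smurf1 (1.49) were higher in 4T1, whereas Ski (-1.36), Ldlrad4 (-0.95) and Ppm1a (-0.62) were lower. Ski is the closest relative of Skil, which was higher. Among the other receptors and co-receptors, Eng, the endoglin gene and a relative of Tgfbr3, was higher (4.40) and Cd109 lower (-4.17). The receptors Acvr1 and Acvr2a were also lower. Of the latent TGF-β binding proteins Ltbp4 was higher (3.67) and Ltbp1 lower (-0.96). Of the targets Junb (2.62), Bhlhe40 (1.98) and Id1 were higher, and Id2 (-2.12), Hmga2 (-1.71) and Cdkn1a (-1.68) were lower. Bmp1, Inhba, Fstl3 and Smad4 were also higher. Some calls were lost when a sample was left out. That of Cdkn1a was lost without 4T1 vehicle sample 7 or 15 (log2 fold change -1.94 to -1.47 over all settings), that of Smad4 without 67NR vehicle sample 1, 9 or 13 (0.55 to 0.71), and those of Acvr2a (-1.12 to -0.84) and Ppm1a (-0.77 to -0.57) in 6 of 8 fits each and also when scaled by library size only. With CIX, 12 of 47 tested genes were called with higher and 8 with lower expression in 4T1 cells, against 34.2% of all genes, with Thbs1 (1.79) and Ccn2 (4.41) among the higher.

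The genes most like each member were sought over the 16 samples, in log2 CPM centred within each line, among the 12629 genes tested for the difference. These correlations are descriptions, since the samples share the treatment groups and the libraries. Tgfbr3 was most like Ifrd2 (Pearson r = 0.98) and Unk (0.97), and Tgfbr2 most like Nacc1 (0.97) and Cant1 (0.96). The 2 receptors had r = 0.86 with each other. Tgfb3 was nearest to Itga6 and Plekhh2 (0.93 each), Skil to Uprt (0.90) and Trim33 (0.88), Smad3 to Alyref and H3f3a (0.89 each), Smad7 to Chm (0.87), Tgfbr1 to Ube2n (0.85) and Suv39h2 (0.85), Tgfb1 to Cblc (0.85) and Tgfb2 to Atp13a3 (0.80). Smad3 and Skil were opposed, with r = -0.67.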

How the data were processed

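The authors quantified single-end reads of stranded mRNA libraries with salmon (version 0.12 in the submitters' processing notes, which name the human build GRCh38, whereas the gene identifiers are mouse and the study's methods name GRCm38), used tximport to combine transcripts by gene, and deposited the estimated counts of 33072 genes as they were, not normalized. Of the values above 0, 0.0436% were whole numbers (to within 1e-06), and of those from 0.5 to 1.5, 64.8% lay within 0.1 of 1. Whether tximport had scaled the estimated counts is not given in the sources used here. The 16 columns were matched to the sample labels, and 32832 genes matched GENCODE M21 of GRCm38.

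Counts were rounded. Genes with an approximate TPM (from mean transcript length) below 1 in more than 3 samples of a fit were left out, in both lines for the difference of responses. The test was limma-voom with TMM scaling and Benjamini-Hochberg adjustment (R 4.3.3, limma 3.58.1, edgeR 4.0.16), tested on simulated data first. Alternatives were edgeR's quasi-likelihood test, DESeq2 1.42.0, DESeq2 size factors, library size only, a common fit of all samples, other filters, quality weights, a threshold of 0.05 and leaving out each sample. From each list the text names up to 4 called genes per comparison and direction whose groups did not overlap, ordered by size, and the 2 genes nearest to each member, of which it prints the nearest for some. Promoters were given by RefSeq for 5 of the 9 genes. The members and lists were chosen with earlier results of these data known. Proteins were not analysed here, and 1 gene of the lists is not reported here.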

Additional observations from a re-analysis of the deposited data

Results flagged for a closer look

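The level of each of the 9 genes, and of Gdf11, Id2, Thbs1 and Ccn2, was looked at in each group of 4 samples, 52 groups in all, for a sample far from the others by Dixon's ratio of gap to range. There were 4 such groups, where chance gives about 1 in 20. Tgfbr3 was at 155 CPM in 67NR CIX sample 10, while the other 3 samples lay between 115 and 120 CPM. The same library held the highest Tgfb2 of its group, 0.775 CPM from 17 counts, as compared to 0.116 to 0.165 CPM in the others. Ccn2 was at 13.7 CPM in 4T1 CIX sample 12, with 8.71 to 9.46 CPM in the others, and Gdf11 was at 24.6 CPM in 4T1 CIX sample 4, with 12.2 to 13.2 CPM in the others. In each of these the distant sample was the highest.

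By the interaction term of limma-voom over 16 samples, the response to CIX differed between 4T1 and 67NR cells for Tgfbr3 among the 9 genes, and for Ccn2 and Gdf11, which were included here because they were called in this difference. It was higher in 4T1 by 1.89 on the log2 scale for Tgfbr3 and by 4.45 for Ccn2, and the difference was -1.22 for Gdf11. Without 67NR CIX sample 10 the difference for Tgfbr3 was 1.98 and was again called.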

How the results depend on the processing

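Tgfbr3 was called in 4T1 cells (log2 fold change 1.63 to 1.75 over the 9 alternative settings, 1.58 to 1.80 over the fits that left out a sample), in the difference of responses (1.84 to 1.92 and 1.78 to 2.00) and between the lines under every setting run. With CIX in 4T1, DESeq2 and the fit of all 16 samples each called 2 of the 9 genes, Tgfbr2 added, and a threshold of 0.05 gave 3. Among all 11676 genes DESeq2 called 3096, the fit of all 16 samples called 2688, and 4984 passed 0.05. In 67NR both DESeq2 and the threshold of 0.05 gave 2 of the 8 tested genes, where 1042 and 2056 of all 11583 genes passed. In the difference of responses DESeq2, quality weights and the threshold of 0.05 each gave 2, and leaving out a sample gave 1 to 2. DESeq2 called 1981 and quality weights 1915 of all 12629 genes, and 3701 passed 0.05. Leaving out a sample gave 652 to 1071 of all genes. Between the lines with vehicle DESeq2 and quality weights each gave 5 of 8, with Smad3 and Smad7 added. No filter and filterByExpr each gave 4 of 9, with Tgfb2 added. The fit of all 16 samples gave 4, with Smad7 added, and the threshold of 0.05 gave 8, while leaving out a sample gave 3 to 5. Of all 11057 genes DESeq2 called 5740, quality weights 5409 and the fit of all 16 samples 5126, and 7456 passed 0.05. No filter called 6461 of 22724 genes and filterByExpr 6244 of 13770, and leaving out a sample gave 4107 to 4922. With CIX the lines differed in 4 genes (edgeR, all 16 samples) to 6 (DESeq2, no filter, filterByExpr) around 5, in 7 at the threshold of 0.05, and in 4 to 6 when a sample was left out. Here edgeR called 3664 of all 10948 genes, the fit of all 16 samples 4431 and DESeq2 5270, and 6991 passed 0.05. No filter called 5751 of 22303 genes and filterByExpr 5575 of 13585, and leaving out a sample gave 3516 to 4751.

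Of the log2 fold changes of the members under these settings, 719 kept their direction and their side of the threshold, 26 newly passed it, 11 no longer did and 21 changed sign, none of them called. Without the filter Tgfbr1 in 4T1 was 0.027 and Smad7 0.035, and with quality weights Smad7 in 4T1 was 0.16, Tgfb1 in the difference -0.26 and Tgfb3 between the lines with CIX -0.013. When a sample was left out, Tgfbr1 in 4T1 ranged from -0.20 to 0.094, Smad7 in 4T1 from -0.19 to 0.11, Tgfb1 in 67NR from -0.13 to 0.76, Tgfb1 in the difference from -0.35 to 0.52 and Tgfb3 between the lines with CIX from -0.082 to 0.19. The cause was not tested. For the other pathway genes named, the same settings were added after the data were seen, and 748 values kept the call while 82 did not, with 0 changes of sign. DESeq2 called 11 of the 49 tested pathway genes in place of 2 in 4T1 (3096 of all 11676 genes), 11 of 51 in place of 1 in 67NR (1042 of 11583) and 9 of 53 in place of 2 in the difference (1981 of 12629).

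At the threshold of 0.001 the number of all genes called in 4T1 was 286 (without vehicle sample 7) to 3096 (DESeq2) around 1084, and in 67NR 0 to 1042 around 45. In the difference it was 652 to 1981 around 993, and between the lines 4107 to 6461 around 4422 with vehicle and 3516 to 5751 around 3746 with CIX. At 0.05 these numbers were 4984, 2056, 3701, 7456 and 6991. At this depth Tgfb2 in 67NR cells, with 2 to 19 counts, was near the floor. No paired analysis was run, because the labels number the samples 1 to 16 with no number shared between groups. The numbers run through the groups in a fixed order, but no label says that consecutive samples share a day or batch.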
